A study of Mus musculus with 10 samples.

Results

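Apoe is 1 of the 14623 genes in the table. It was picked for its large difference in stromal cells, from the same counts that are described here, so the stromal values are given as a description and without a test. Apoe encodes apolipoprotein E, a secreted lipid-binding protein that coats lipoprotein particles and is taken up by cells through cell-surface receptors. Macrophages are a well-known source of apolipoprotein E, where its gene is a target of the LXR nuclear receptors that sense cholesterol derivatives. In adipose tissue it is also made by adipocytes and by stromal cells, and it takes part in the handling of triglyceride and cholesterol. In the mouse genome build mm10, Apoe (ENSMUSG00000002985) is a protein-coding gene with 4 exons on the minus strand of chromosome 7, from 19696109 to 19699188. No annotated gene overlaps it; the nearest, Tomm40, lies 2125 bp away and Apoc1 lies 3449 bp away.

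To ask how the loss of BBS8, a subunit of the ciliary BBSome complex, acts on the cells of inguinal white adipose tissue (iWAT), the stromal vascular fraction of a Bbs8 KO (Bbs8-/-) and a Bbs8 WT (Bbs8+/+) mouse was profiled. Both mice were lean and 7 weeks old. The knockout is global, so no cell type was targeted in particular. Mature adipocytes had been removed and red blood cells lysed before the cells were loaded on Seq-Well S3 arrays, which give each captured molecule a unique molecular identifier (UMI). The deposited counts held 8985 Bbs8 KO cells and 1929 Bbs8 WT cells, in 5 barcode sets per genotype. The series' design text speaks of 1 mouse per genotype, so the barcode sets were taken as technical and no p-value is given for any difference between the mice. The 95% intervals are exact intervals for counting error only.

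Sets held 196 to 2005 cells and 68989 to 701136 UMIs, and the median cell had 251 UMIs in Bbs8 KO and 278 UMIs in Bbs8 WT. The targeted gene, listed as Ttc8, had 0 UMIs in Bbs8 KO against 5 UMIs in Bbs8 WT, all from 1 set, so this check of the labels is weak. Of 10847 barcodes, 36 were found in more than 1 set, in 103 cells. Apoe was the gene with rank 9 by UMIs over all cells, with 15720 UMIs.

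Cell classes were called per cell from raw UMIs of marker genes. A cell took the class with at least 2 UMIs over its list and more than over any other list, and 9463 of the 10914 cells were called. Among the leading genes of each class outside the lists were Col5a2, Lama2 and Fstl1 in stromal cells, Hal, Fcna, Cd209f and Stab1 in macrophages, Ear2, Lyz2, Fcrls and Retnla in monocytes, Tpm1 and Cald1 in mural cells, Btnl9, Mgll, Cavin2 and Plvap in endothelial cells, Bcl11b and Tcf7 in T cells, Cd22 and Igkc in B cells and the casein genes Csn1s2a and Csn2 in epithelial cells. Fcrls and Retnla are also genes of macrophages. Dendritic cells were led by Ccl5, a chemokine gene of T and NK cells, before Mpeg1 and Irf8, so their name is less certain. Stromal cells were divided into P1 (marked by Dpp4 and Pi16), P2 (marked by Col15a1 and Icam1) and P3 (marked by F3 and Mmp3) by the same kind of count, with a minimum of 1 UMI. Stromal cells without such a UMI, or with a tie between the lists, got no subtype. P2 made up 1344 of the 4322 Bbs8 KO stromal cells and 532 of the 1155 of Bbs8 WT. The summed stromal levels thus mix the subtypes in different proportions.

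Apoe was lower in stromal cells of Bbs8 KO than of Bbs8 WT. It was measured at 3623 UMIs per 1000000 UMIs (CPM; 95% interval 3526 to 3721) in 4322 Bbs8 KO stromal cells and at 11022.5 CPM (10713.6 to 11338.1) in 1155 Bbs8 WT stromal cells. The level in Bbs8 WT was 3.04 times that in Bbs8 KO, which gives a log2 ratio (Bbs8 KO over Bbs8 WT) of -1.60 (-1.66 to -1.55). The Bbs8 KO sets read 3675 CPM in KO5_p2, 3492 in KO5_p3, 3680 in KO6_p1, 3816 in KO6_p2 and 3448 in KO6_p3. The Bbs8 WT sets read 8690 CPM in WT3_p1, 11138.9 in WT3_p2, 11097.4 in WT3_p3, 11435.1 in WT4_p2 and 11492.3 in WT4_p3. All Bbs8 KO sets lay below all Bbs8 WT sets, WT3_p1 was the lowest of the Bbs8 WT sets, and without any single set the log2 ratio was between -1.65 and -1.56. The set codes carry a pair of numbers per genotype, and the methods of the study describe a pair of Seq-Well arrays per sample, each amplified in pools of reactions. That the numbers mark these arrays was not stated. By these numbers the level was 3582 CPM for KO5, 3645 CPM for KO6, 10190.2 CPM for WT3 and 11453.6 CPM for WT4, so the numbers within a genotype lay closer to each other than to those of the other genotype.

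**Figure D1:**
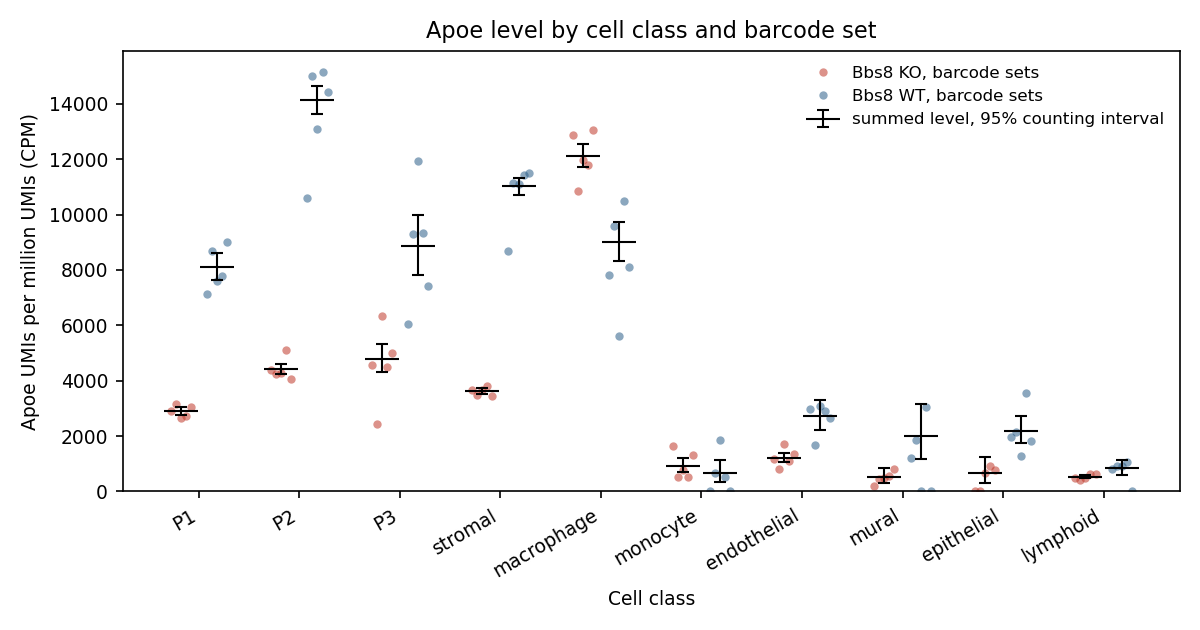
Apoe UMIs per 1000000 UMIs (linear axis from 0) in each cell class. Points are barcode sets (red Bbs8 KO, blue Bbs8 WT) and black bars are the summed level of the mouse with its 95% counting interval. Bbs8 WT sets lie above Bbs8 KO sets in stromal, P1, P2 and epithelial cells, and Bbs8 KO sets lie above Bbs8 WT sets in macrophages.

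In stromal cells 5969 genes had at least 50 UMIs, and of these 2.3% were lower in Bbs8 KO by 2-fold or more, 10.4% were higher by as much, 3.52% had all Bbs8 KO sets below all Bbs8 WT sets and 7.92% had them all above. The median log2 ratio of these genes was 0.12. The ratio of 19 genes was lower than that of Apoe, and among the 1423 genes with at least 200 UMIs that of 6 genes was. Since the gene was picked for this difference, nothing is read from these places. By level, Apoe was gene 6 of the stromal transcriptome in Bbs8 WT and gene 14 in Bbs8 KO.

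All stromal subtypes held Apoe, with the highest level in P2 of Bbs8 WT. P1 cells, described as the stem-cell-like progenitors, had 2911 CPM (2771 to 3057; 1520 cells) in Bbs8 KO and 8104 CPM (7625 to 8605; 330 cells) in Bbs8 WT, with a log2 ratio of -1.48 (-1.59 to -1.36). Their sets ranged from 2643 to 3156 CPM in Bbs8 KO and from 7149 to 8995 CPM in Bbs8 WT. All Bbs8 KO sets lay below all Bbs8 WT sets, as was the case for 2.4% of the genes measured in P1 cells. P2 cells, the committed preadipocytes, had 4429 CPM (4250 to 4615; 1344 cells) and 14131.1 CPM (13633.9 to 14641.9; 532 cells), with a log2 ratio of -1.67 (-1.75 to -1.60). Their sets ranged from 4075 to 5099 CPM and from 10603.1 to 15161.3 CPM. All Bbs8 KO sets lay below all Bbs8 WT sets, as was the case for 3.91% of the genes measured in P2 cells. P3 cells, which have been described as a regulatory subtype, had 4802 CPM (4328 to 5313; 212 cells) and 8851 CPM (7819 to 9981; 75 cells), with a log2 ratio of -0.88 (-1.11 to -0.65).

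The P3 sets overlapped. In Bbs8 KO they read 4551 CPM in KO5_p2, 2430 in KO5_p3, 6322 in KO6_p1, 4510 in KO6_p2 and 5015 in KO6_p3. In Bbs8 WT they read 6049 CPM in WT3_p1, 9310 in WT3_p2, 11923.9 in WT3_p3, 9351 in WT4_p2 and 7420 in WT4_p3. KO6_p1 lay above WT3_p1, and both WT3_p1 and WT3_p2 held only 8 P3 cells. The P3 ratio was also the one among the subtypes that moved most with the choice of cells. In cells with at least 200 genes it was -0.43, and in those with at least 8 stromal marker UMIs and none of another class it was -0.31. With TMM scaling factors in place of total UMIs, which moved every P3 gene by 0.65 on the log2 scale, it was -0.24.

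The stromal calls of the mice did not hold the same RNA of other cells. Stromal cells of Bbs8 KO held 1504 CPM of the 15 T cell markers and 1618 CPM of the 11 B cell markers, and those of Bbs8 WT held 434.3 CPM and 418.3 CPM. The list of macrophages, a class rich in Apoe, was at 1856 CPM (sets 1695 to 2078) in stromal cells of Bbs8 KO and at 1045 CPM (sets 302.2 to 1311) in those of Bbs8 WT, and at 1750 and 644.4 CPM in P1 cells. The summed level of the 8 stromal markers was 49583.6 CPM in Bbs8 KO against 71068.2 CPM in Bbs8 WT. Over the sets, the T cell list ranged from 1344 to 1608 CPM in Bbs8 KO and from 27.5 to 610.5 CPM in Bbs8 WT, and the stromal list from 47554.8 to 52549.5 CPM and from 61351.5 to 80968.6 CPM. The 9 genes of mature adipocytes, which also make Apoe, summed to 239 CPM (sets 165.5 to 285.8) in Bbs8 KO and 299.5 (sets 52.5 to 975.6) in Bbs8 WT stromal cells, and to 375.4 and 570.3 CPM in P2 cells. The red blood cell list was at 87.3 CPM (sets 55.2 to 129.4) against 205.7 (sets 27.5 to 503.9) in stromal cells and at 89.0 and 278.2 CPM in P2 cells, lower in Bbs8 KO as Apoe was, with sets that overlapped. In P1 cells the adipocyte list was higher in Bbs8 KO, at 118.8 against 15.2 CPM from 2 UMIs, and the red blood cell list was at 61.2 and 106.1 CPM. In P3 cells the adipocyte list was at 102.4 and 66.5 CPM and the red blood cell list at 204.9 and 66.5 CPM, with 2 UMIs of each in Bbs8 WT. The part of either list in the Apoe ratio was not tested. The Apoe level was therefore read again by the number of stromal marker UMIs in the cell. With 2 to 3 stromal marker UMIs it was 2357 CPM in Bbs8 KO against 4638 CPM in Bbs8 WT, with a log2 ratio of -0.97 (-1.37 to -0.57). With 4 to 7 the log2 ratio was -1.01 (-1.20 to -0.82), with 8 to 15 it was -1.77 (-1.90 to -1.64), with 16 to 31 it was -1.78 (-1.91 to -1.66), and with 32 or more it was -1.34 (-1.43 to -1.25). Apoe was lower in Bbs8 KO in every one of these ranges. The stromal list (Bbs8 KO first) was close at 2 to 3 marker UMIs (12653.5, 11559.5 CPM) and at 4 to 7 (22929.4, 22814.1). It was lower in Bbs8 KO at 8 to 15 (36750.3, 42615.6), 16 to 31 (53591.0, 68033.7) and 32 or more (87335.4, 97969.2). Median depths were 347 and 283 UMIs at 16 to 31, and 702 and 519 at 32 or more. The higher ranges thus did not hold like cells, and what this adds to their ratios was not tested.

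**Figure D2:**
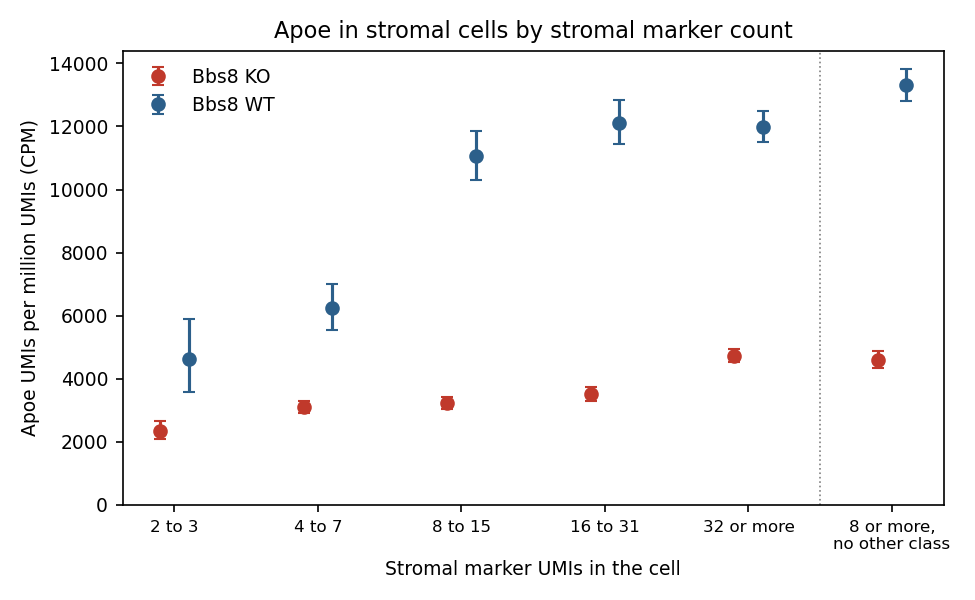
Apoe UMIs per 1000000 UMIs (linear axis from 0) in stromal cells grouped by their number of stromal marker UMIs, with 95% counting intervals; the group at the right holds cells with 8 or more stromal marker UMIs and no UMI of another class. Bbs8 KO (red) lies below Bbs8 WT (blue) in every group, from 2357 against 4638 CPM at 2 to 3 marker UMIs to 4735 against 11989.6 CPM at 32 or more.

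The difference was nearly as large in stromal cells chosen more strictly, with at least 8 stromal marker UMIs and none of another class. These were 675 cells of Bbs8 KO and 522 cells of Bbs8 WT. Their depth was close, with medians of 288 and 305 UMIs, and so was the level of the stromal list, at 84756.3 and 87431.9 CPM. Apoe was at 4596 CPM (4337 to 4866) in Bbs8 KO and at 13305.5 CPM (12810.2 to 13815.0) in Bbs8 WT, with a log2 ratio of -1.53. The Bbs8 KO sets read 4882, 3978, 5218, 3907 and 4965 CPM (KO5_p2, KO5_p3, KO6_p1, KO6_p2 and KO6_p3). The Bbs8 WT sets read 10237.6, 12971.1, 12610.4, 14504.4 and 14264.1 CPM (WT3_p1, WT3_p2, WT3_p3, WT4_p2 and WT4_p3). The highest Bbs8 KO set thus lay below the lowest Bbs8 WT set. The share of genes with such sets was not computed in these cells, and the gene was picked for its stromal difference. Of the 1369 genes measured in these cells, 3.65% were lower in Bbs8 KO by 2-fold or more, their median log2 ratio was -0.01, and 11 had a lower ratio than Apoe. These cells were chosen after the data had been seen.

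Macrophages went the other way. Apoe was at 12124.3 CPM (11719.5 to 12539.5) in 634 macrophages of Bbs8 KO and at 9023 CPM (8338 to 9748) in 176 macrophages of Bbs8 WT, with a log2 ratio of 0.43 (0.30 to 0.55). The Bbs8 KO sets read 12878.8 CPM in KO5_p2, 10859.5 in KO5_p3, 11984.5 in KO6_p1, 11795.1 in KO6_p2 and 13053.9 in KO6_p3. The Bbs8 WT sets read 7817 CPM in WT3_p1, 9586 in WT3_p2, 5618 in WT3_p3, 10478.8 in WT4_p2 and 8094 in WT4_p3. All Bbs8 KO sets lay above all Bbs8 WT sets, as was the case for 2.33% of the 1073 genes with at least 50 UMIs in macrophages. However, the counting intervals of KO5_p3, KO6_p1 and KO6_p2 each overlapped those of WT3_p2 and WT4_p2. Of the macrophage genes 3.08% were lower in Bbs8 KO by 2-fold or more and 6.62% were higher by as much, and Apoe was in neither group. The ratio of 254 genes was higher than that of Apoe and the median log2 ratio was -0.04, so a difference of this size was common among the genes of the class.

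The macrophages of Bbs8 KO held more stromal marker RNA, at 2472 CPM (sets 1786 to 2993) against 1251 CPM (sets 558.3 to 1915) in Bbs8 WT, and more of the T cell list, at 1091 against 281.1 CPM. The macrophage list itself was at 26670.5 and 28754.5 CPM. In macrophages without any UMI of another class, Apoe was at 15864.1 CPM in Bbs8 KO and at 9545 CPM in Bbs8 WT, with a log2 ratio of 0.73, so the difference was larger without the cells that held such RNA. By macrophage marker UMIs, the log2 ratio was 1.32 (0.58 to 2.16) with 2 to 3, 0.21 (-0.09 to 0.53) with 4 to 7 and 0.44 (0.31 to 0.58) with 8 or more. The value with 2 to 3 rests on 16 Apoe UMIs in 29 Bbs8 WT cells.

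**Figure D3:**
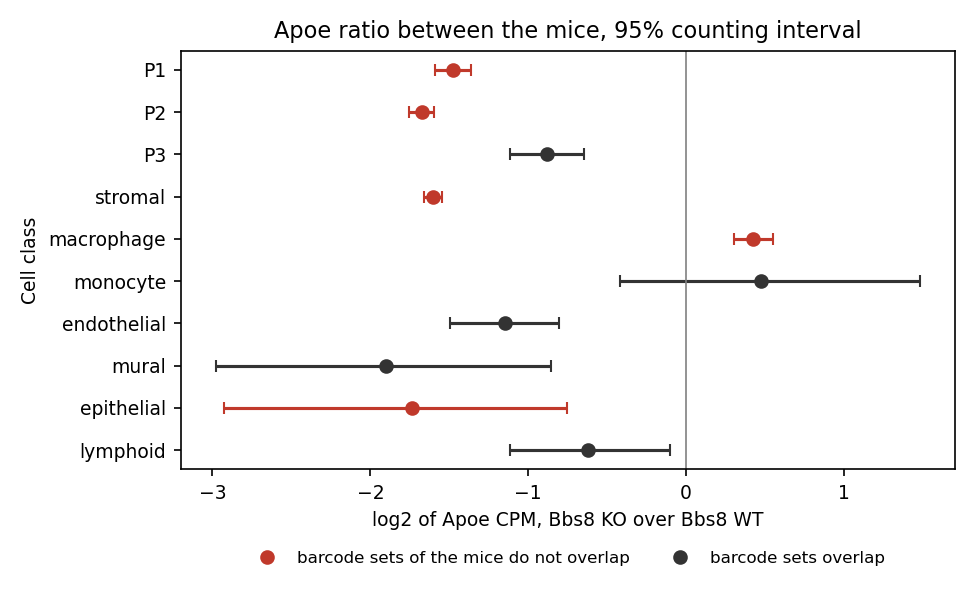
Log2 ratio of Apoe CPM, Bbs8 KO over Bbs8 WT, in each class with its 95% counting interval. Red points are classes whose barcode sets do not overlap between the mice. The stromal ratio of -1.60 and the macrophage ratio of 0.43 lie on opposite sides of 0, and the wide intervals of the monocyte, mural and epithelial classes go with few Apoe UMIs.

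Of 1053 genes with at least 50 UMIs in both stromal cells and macrophages, 10 had a stromal log2 ratio of -1 or less. Apoe had the lowest stromal ratio of the 1053, which is what the gene was picked for. In macrophages 8 of the 10 genes had ratios below 0, as did 53.2% of the 1053, among them the chaperone Hsp90b1 (-0.62) and the tetraspanin Cd63 (-0.90), and 2 had ratios above 0, of which Apoe was one.

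**Figure D4:**
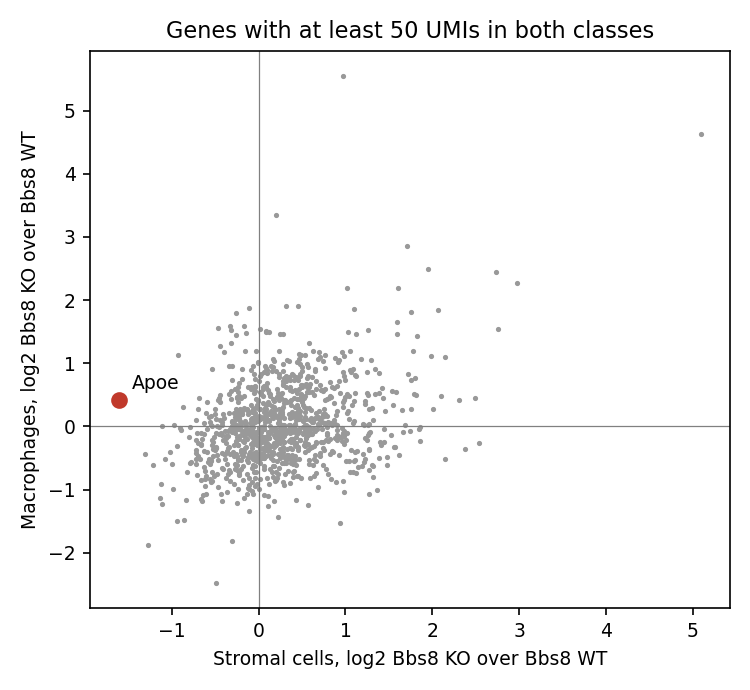
Log2 ratio of Bbs8 KO over Bbs8 WT in stromal cells (horizontal) and in macrophages (vertical) for the 1053 genes with at least 50 UMIs in both classes. Each grey point is a gene and Apoe is marked in red, at -1.60 and 0.43.

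The remaining classes held less Apoe. Endothelial cells had 1227 CPM (1068 to 1403; 414 cells) in Bbs8 KO and 2728 CPM (2235 to 3296; 120 cells) in Bbs8 WT, with a log2 ratio of -1.15 (-1.49 to -0.80). The Bbs8 KO sets read 1163 CPM in KO5_p2, 824.4 in KO5_p3, 1706 in KO6_p1, 1099 in KO6_p2 and 1344 in KO6_p3. The Bbs8 WT sets read 2973 CPM in WT3_p1, 1680 in WT3_p2, 3099 in WT3_p3, 2909 in WT4_p2 and 2644 in WT4_p3. The genotypes overlapped through KO6_p1 and WT3_p2 alone. In endothelial cells without any UMI of another class the levels were 1412 and 1721 CPM, with a log2 ratio of -0.28, so the size of the endothelial difference depended on the cells used. With TMM scaling factors, which moved every endothelial gene by 0.84, the ratio was -0.31.

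Mural cells, which are pericytes and smooth muscle cells of the vessels, had 16 Apoe UMIs in 71 cells of Bbs8 KO (530.9 CPM, 303.4 to 862.1) and 18 in 28 cells of Bbs8 WT (1997 CPM, 1184 to 3157). Of the Bbs8 WT UMIs 13 came from WT4_p2, and without that set the log2 ratio went from -1.90 to -0.98. With TMM scaling factors, which moved every mural gene by 1.12, it was -0.78, and in cells thinned to 200 UMIs it was -2.59. Epithelial cells, called by keratins and other epithelial markers and led by caseins of the mammary gland that lies in this fat depot, had 9 UMIs in 32 cells of Bbs8 KO (652.3 CPM, 298.3 to 1238) and 84 UMIs in 82 cells of Bbs8 WT (2189 CPM, 1746 to 2710). The epithelial sets ranged from 0 to 937.2 CPM in Bbs8 KO and from 1285 to 3567 CPM in Bbs8 WT, and all Bbs8 KO sets lay below all Bbs8 WT sets, as was the case for 17.5% of the 63 genes measured in the class. The epithelial log2 ratio of -1.74 became -0.83 in cells thinned to 200 UMIs, -2.90 without cells with 2 or more UMIs of another class, and -2.73 with TMM scaling factors, which moved every epithelial gene by -0.99. With the lymphoid level subtracted it was -3.52 (113.5 and 1358 CPM). Monocytes had 924.4 CPM (692.5 to 1209) and 663.4 CPM (353.2 to 1134), with a ratio whose interval held 0 (-0.42 to 1.48) and with 13 Apoe UMIs in Bbs8 WT. Of these 7 came from WT3_p3, and without that set the level of Bbs8 WT was 379.3 CPM and the log2 ratio went from 0.48 to 1.27. It was -0.02 in monocytes thinned to 200 UMIs and 3.13 (2771 and 313 CPM) in monocytes without a UMI of another class, so no direction is given for monocytes. In dendritic cells 13 Apoe UMIs were found in 72 cells of Bbs8 KO (329.8 CPM). None was found in the 2271 UMIs of 7 cells of Bbs8 WT, so no ratio is given. This allows up to 1624 CPM by the exact interval and 1321 CPM by a limit of 3 counts.

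T and B cells are not known to express Apoe, and their level serves as the background of RNA from other cells. Together these lymphoid cells had 538.7 CPM (488.3 to 592.9; 2065 cells) in Bbs8 KO and 831.6 CPM (585.5 to 1146; 126 cells) in Bbs8 WT. The Bbs8 KO sets read 472.2 CPM in KO5_p2, 407.7 in KO5_p3, 495.3 in KO6_p1, 643.7 in KO6_p2 and 647.4 in KO6_p3. The Bbs8 WT sets read 827.8 CPM in WT3_p1, 908.7 in WT3_p2, 932 in WT3_p3, 1071 in WT4_p2 and 0 in WT4_p3. WT4_p3 had no Apoe UMI in 30 lymphoid cells, and WT3_p1, WT3_p2 and WT3_p3 held 4, 15 and 5 cells. The log2 ratio was -0.62 (-1.11 to -0.10), and without WT4_p2, which gave 29 of the 37 UMIs of Bbs8 WT, it was 0.23, so no direction is given for lymphoid cells. Of the 2996 genes measured there, 7.71% were lower in Bbs8 KO by 2-fold or more and 19.4% were higher. The intervals of Bbs8 KO mural cells (303.4 to 862.1 CPM) and epithelial cells (298.3 to 1238 CPM) held the Bbs8 KO lymphoid level. The mural and epithelial ratios thus rest on a Bbs8 KO level not above this background. In Bbs8 WT the monocyte level of 663.4 CPM lay below the lymphoid level.

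The lymphoid cells also held 1077 CPM of the stromal list in Bbs8 KO against 1146 CPM in Bbs8 WT, and 305.5 and 269.7 CPM of the macrophage list. The 9 genes of mature adipocytes, among them Adipoq and Plin1, were at 47.7 and 22.5 CPM there. For 100 UMIs of the stromal list there were 7.31 Apoe UMIs in Bbs8 KO stromal cells and 50 in Bbs8 KO lymphoid cells, and 15.5 and 72.5 in Bbs8 WT. For 100 UMIs of the macrophage list there were 45.5 Apoe UMIs in macrophages and 176.4 in lymphoid cells of Bbs8 KO, and 31.4 and 308.3 in Bbs8 WT. In neither mouse did lymphoid cells hold Apoe in the proportion of stromal cells or of macrophages. When the lymphoid level of the same mouse was subtracted, the log2 ratio was -1.72 in stromal cells and 0.50 in macrophages.

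Ordered by level, macrophages stood first in Bbs8 KO, followed by P3 (4802 CPM) and P2 (4429 CPM), whose intervals overlapped, then P1 (2911 CPM) and endothelial cells (1227 CPM). The intervals of macrophages and P3, of P2 and P1, and of P1 and endothelial cells did not overlap. Endothelial cells and monocytes, and each of the classes below them and its neighbour, overlapped. In Bbs8 WT the order began with P2 (14131.1 CPM), whose interval lay above those of macrophages (9023 CPM), P3 (8851 CPM) and P1 (8104 CPM). The intervals of macrophages and P3 overlapped, as did those of P3 and P1, and P1 lay above endothelial cells. Below that, endothelial, epithelial and mural cells overlapped in turn. The class with the highest level was therefore macrophages in the Bbs8 KO mouse and P2 in the Bbs8 WT mouse.

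Among single cells, Apoe was found in 49.8% (48.3 to 51.3) of Bbs8 KO stromal cells and 79.0% (76.6 to 81.4) of those of Bbs8 WT. In macrophages the shares were 78.2% (74.8 to 81.4) and 65.3% (57.8 to 72.3), and in lymphoid cells, as background, 13.4% (11.9 to 14.9) and 16.7% (10.6 to 24.3). Median depths were 247.5 and 281 UMIs in stromal cells, 296 and 292 UMIs in macrophages and 285 and 267.5 UMIs in lymphoid cells. To compare the shares at a common depth, every cell was thinned to 200 UMIs, which left out 1323 stromal cells of Bbs8 KO and 211 of Bbs8 WT, 150 and 35 macrophages, and 463 and 26 lymphoid cells. The shares were then 41.4% and 71.4% in stromal cells, 74.2% and 58.2% in macrophages and 8.49% and 10% in lymphoid cells. Dendritic cells of Bbs8 KO, at 6.90% after thinning, were not above the lymphoid background. The thinned intervals of Bbs8 KO monocytes (8.39 to 23.7%), mural cells (3.33 to 21.8%) and epithelial cells (6.83 to 40.7%) held the 8.49% of lymphoid cells.

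Bbs8 KO had the smaller share of stromal cells with several Apoe UMIs. At 200 UMIs per cell, 16.9% of Bbs8 KO and 50.9% of Bbs8 WT stromal cells held at least 2 Apoe UMIs. At least 5 were held by 1.5% of Bbs8 KO and 14.1% of Bbs8 WT stromal cells, and by 16.3% and 12.1% of macrophages. Without thinning, stromal cells with at least 5 Apoe UMIs made up 5.92% and 30.6%, and P2 cells with as many made up 10.5% and 41.9%. Stromal cells in which Apoe was found held 2.49 Apoe UMIs on average in Bbs8 KO and 5.28 in Bbs8 WT. In P2 cells they were 2.94 and 6.53.

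**Figure D5:**
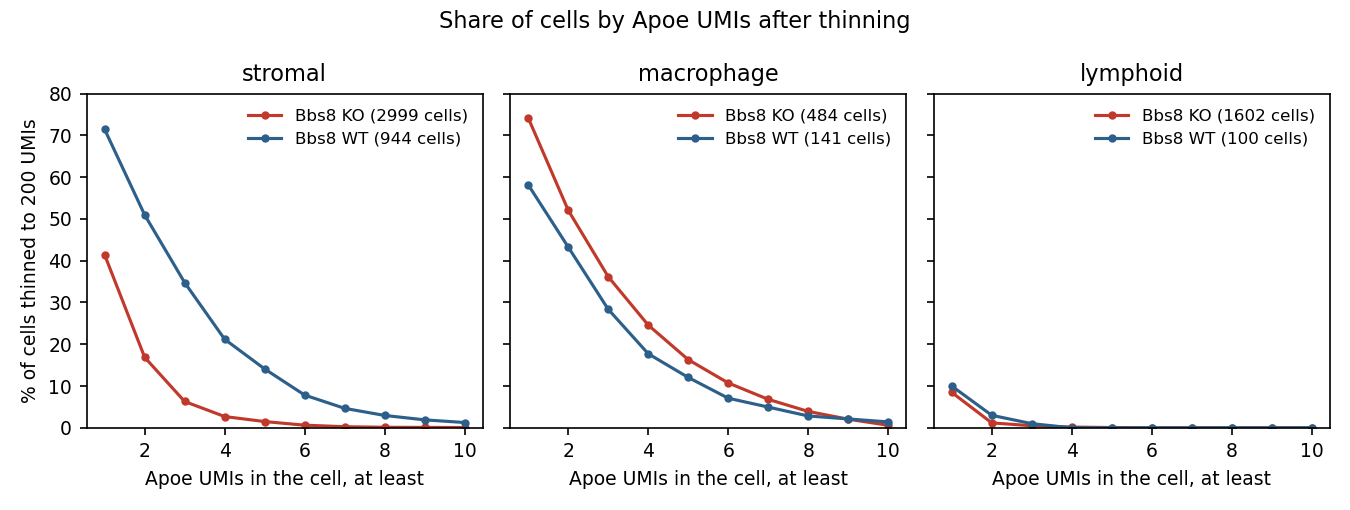
Share of cells with at least the number of Apoe UMIs on the horizontal axis, after every cell was thinned to 200 UMIs, in stromal cells, macrophages and lymphoid cells (red Bbs8 KO, blue Bbs8 WT). The share with at least 1 UMI was 41.4% and 71.4% in stromal cells, 74.2% and 58.2% in macrophages and 8.49% and 10% in lymphoid cells.

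The other genes of the Apoe pathway were taken from lists, and all of their stromal values were set beside the median of 0.12 over all genes, of which 2.3% were lower by 2-fold or more and 10.4% were higher. Of 15 apolipoproteins besides Apoe, 5 were in the table and 3 had at least 50 UMIs in stromal cells; 1 was lower by 2-fold or more and none was higher. This was Apod, a lipocalin carried on lipoproteins, at 216.6 CPM in Bbs8 KO against 473.2 CPM in Bbs8 WT (log2 ratio -1.11, -1.38 to -0.87). In the strictly chosen stromal cells (at least 8 stromal marker UMIs and none of another class) its ratio was -0.57, inside 2-fold. Apoc1, the small apolipoprotein next to Apoe on the chromosome, was at 30.5 and 52.6 CPM (-0.70, -1.54 to 0.00), and Clu, the apolipoprotein J gene, was at 42.0 and 38.9 CPM (0.10, -0.68 to 0.98).

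Of 15 receptors and sorting factors for apolipoprotein E, 9 were measured in stromal cells, with a median log2 ratio of -0.42; 1 was lower by 2-fold or more and 2 were higher, beside 2.3% and 10.4% of all stromal genes. With 9 genes, such counts say little about the list. Vldlr, the very low density lipoprotein receptor, was at 81.9 CPM in Bbs8 KO against 256 CPM in Bbs8 WT (-1.59, -2.03 to -1.26). Lrp1, the large receptor for lipoprotein remnants, was at 439.4 and 681.2 CPM (-0.63, -0.83 to -0.43). All its Bbs8 KO sets lay below all its Bbs8 WT sets, as was the case for 3.52% of all stromal genes. Among the genes that were higher was the sorting receptor Sorl1, at 147.6 and 38.9 CPM (1.80). In the strictly chosen stromal cells the ratio of Vldlr was -0.93, inside 2-fold, and that of Sorl1 was -0.12. Sorl1 was at 677.9 CPM in Bbs8 KO lymphoid cells, and the T and B cell markers were higher in stromal cells of Bbs8 KO, as given above. The part of such RNA in the Sorl1 ratio was not tested.

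Of 20 genes of the LXR pathway and of cholesterol efflux, 16 were measured in stromal cells, with a median log2 ratio of 0.18; 2 were higher by 2-fold or more and 1 was lower, beside 10.4% and 2.3% of all stromal genes. The cholesterol exporter Abca1, an LXR target like Apoe, was at 124.6 and 128 CPM (-0.04, -0.48 to 0.42). Nr1h3, which encodes LXR alpha, was at 28.4 and 34.3 CPM (-0.23, -1.15 to 0.69). Scd1, the stearoyl-CoA desaturase and also an LXR target, was higher at 229.5 and 107.4 CPM (1.06, 0.65 to 1.57), and its ratio was 1.02 in the strictly chosen stromal cells. The small GTPase gene Arl4c was at 119.2 and 54.9 CPM (1.05), and Rxra, the partner of LXR, was at 29.1 and 80 CPM (-1.32, -2.14 to -0.77). In the strictly chosen stromal cells the ratio of Rxra was -0.60, inside 2-fold, and Arl4c had 17 UMIs in Bbs8 KO but only 1 in Bbs8 WT. Members of this list thus went in both directions in stromal cells. Of 18 genes of cholesterol synthesis, 5 were measured and none was past 2-fold, with a median log2 ratio of 0.10.

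Of 8 genes around Apoe on chromosome 7, 4 were measured in stromal cells and none was past 2-fold. The lowest was Apoc1, whose ratio of -0.70 is given above with an interval that reached -1.54. Tomm40, a subunit of the mitochondrial import pore, was at 39.3 and 45.7 CPM (-0.20, -0.97 to 0.59). The ratio was 0.06 for Clptm1 and -0.18 for Relb, with intervals that held 0, and their upper and lower limits (-0.57 to 0.76 and -1.02 to 0.69) did not hold the ratio of Apoe.

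In macrophages 10 genes of these lists were measured and none was past 2-fold, beside 3.08% lower and 6.62% higher of all macrophage genes. With 10 genes, such a count says little about the lists. Abca1 was at 518.7 and 463.8 CPM (0.16, -0.39 to 0.75), the phospholipid transfer protein gene Pltp at 1449 and 1476 CPM (-0.03, -0.34 to 0.30), and Lrp1 at 146.7 and 140.5 CPM (0.06, -0.96 to 1.22). The medians were 0.08 for the receptors and 0.04 for the LXR list. In lymphoid cells the receptor list had 4 measured genes, of which 2 were higher by 2-fold or more, and the LXR list had 8, of which 3 were, beside 19.4% of all lymphoid genes. No gene of either list was lower by as much, and of cholesterol synthesis only Srebf2 was measured (0.36). Bbs8 WT had 0 to 22 UMIs of each of these genes in lymphoid cells, and their levels there were not read further.

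The genes whose level over the 9 classes and both mice was most like that of Apoe were Selenop, Aldh2 and Fcgrt, with a Pearson r of 0.93, 0.90 and 0.88 over 18 points among 3658 genes. The points share 2 mice and their libraries, so this is a description. Selenop, the plasma selenium carrier, was at 983 CPM in Bbs8 KO against 1202 CPM in Bbs8 WT stromal cells (log2 ratio -0.29) and at 6271 and 7716 CPM in macrophages (-0.30). It shared the classes of Apoe, and its ratios between the mice were smaller in stromal cells and of the other sign in macrophages. Aldh2, a mitochondrial aldehyde dehydrogenase, was at 352 and 500.6 CPM in stromal cells (-0.50) and at 719.1 and 590.3 CPM in macrophages (0.28), with the same signs as Apoe. Fcgrt, the neonatal Fc receptor, was at 492.9 and 509.8 CPM in stromal cells (-0.05) and at 2175 and 2445 CPM in macrophages (-0.17). The next were Oat, 2610507B11Rik, Scarb2, Mydgf, Ap2s1, Rpn1 and Dnajc3, with r from 0.86 to 0.82. Of these Ap2s1 (-0.23 and 0.63) and 2610507B11Rik (-0.05 and 0.29) also had stromal ratios below 0 and macrophage ratios above 0.

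Over the 10 barcode sets in stromal cells, the genes most like Apoe were Clec3b (r = 0.99), Htra3 (0.98), Cd63 (0.98), Aebp1 (0.97), Atf5 (0.97), Peg3 (0.97), Hsp90b1 (0.97), Gsn (0.96), Sparcl1 (0.96) and Dcn (0.95), among 1422 genes. With the sets of the genotypes apart for Apoe, this mostly ranks genes by the same difference between the mice, and Gsn and Dcn were among the markers that called the cells. Clec3b, which encodes tetranectin, was at 461.7 CPM in Bbs8 KO against 1516 CPM in Bbs8 WT (log2 ratio -1.70). Peg3, an imprinted zinc finger gene, was at 148.3 and 596.6 CPM (-1.97), and Aebp1, a regulator of adipogenesis and matrix genes, at 382.5 and 1072 CPM (-1.48). All 10 genes were lower in Bbs8 KO stromal cells, with log2 ratios from -0.69 to -1.97.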

How the data were processed

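Single cells of the iWAT SVF were profiled by Seq-Well S3. The deposited table gives UMI counts as whole numbers for 14623 genes and 10914 cells. The authors demultiplexed the reads, aligned them to mm10 and counted UMIs; the submitters' processing notes name bcl2fastq 2.20, STAR and Seurat. The methods of the study also name a step that evens out sequencing depth. Where the table stands relative to that step was not stated, and this could change every level. Cells in the table had 101 to 994 genes, and no further filter was applied. The labels list 10 samples. The genotype and set code were read from the cell names, with 0 columns unmapped, and the codes could not be matched to single samples. The members and gene lists were chosen with earlier results of these data known.

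Classes were called from marker lists (at least 2 UMIs and more than in any other list). Monocyte markers Clec4e and Fcnb and the epithelial marker Krt15 were not used here. No doublet caller was run; cells holding marker UMIs of another class were left out as an alternative. UMIs were summed per mouse and class and given per 1000000 of all UMIs (CPM). For log2 ratios of Bbs8 KO over Bbs8 WT, 5 CPM were added to each level as a pseudocount, which understates the change of low genes. Levels have exact Poisson intervals, shares exact Clopper-Pearson intervals and ratios exact conditional intervals of the plain ratio, all at 95% and for counting error only. Where no UMI was found in a class, a limit of 3 counts is given beside the exact interval. Genes needed 50 UMIs in the class to be compared. Named genes were Apoe, members of the lists past that minimum, and the 10 genes most like Apoe by Pearson r of log2(CPM + 5), among genes with at least 200 UMIs, over 9 classes in both mice and over the stromal sets; some genes that meet this rule are not reported here. Calculations used Python 3.11.15, numpy 2.4.6, scipy 1.17.1 and pandas 2.3.3. The ratio and interval code was tested on simulated data. Scaling factors for the alternatives came from edgeR 4.0.16 (TMM) and DESeq2 1.42.0 (size factors) in R 4.3.3, and no test of either was run. Positions and neighbours are from GENCODE gene models on mm10.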

Additional observations from a re-analysis of the deposited data

Results flagged for a closer look

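The stromal and macrophage ratios of Apoe differed in direction. Every Bbs8 KO set lay below every Bbs8 WT set in stromal cells and above every Bbs8 WT set in macrophages, and the log2 ratios differed by -2.03. This difference was not tested, since there was 1 mouse per genotype.

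In 23 groups of 4 or 5 barcode sets, 3 had a set far from the others by Dixon's criterion, where chance gives about 1 in 20. In stromal cells of Bbs8 WT, WT3_p1 had 8690 CPM, the lowest value, and the other sets lay between 11097.4 and 11492.3 CPM. In lymphoid cells of Bbs8 WT, WT4_p3 had 0 CPM in 30 cells. In dendritic cells of Bbs8 KO, KO5_p2 had 1201 CPM, from 2 UMIs in 6 cells.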

How the results depend on the processing

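Each class ratio was computed again under up to 27 alternatives, 254 values in 10 classes. Of these, 223 lay within the counting interval of the reported ratio, 29 lay outside it with the same sign and 2, in lymphoid cells, had the other sign. With the monocyte ratio in cells thinned to 200 UMIs (-0.02 in place of 0.48), which lay within its interval, 3 values had the other sign. All 27 stromal values were below 0 (-1.72 to -1.52) and all 25 macrophage values above 0 (0.33 to 1.00). The causes of the shifts were not tested.

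With TMM factors the ratio was -1.52 in stromal, -1.11 in P1, -1.55 in P2, -0.24 in P3, 1.00 in macrophages, -0.31 in endothelial and -0.78 in mural cells, -2.73 in epithelial cells, 1.35 in monocytes, and 0.35, of the other sign, in lymphoid cells. This scaling moved every gene of a class alike, by 0.08 in stromal, 0.36 in P1, 0.13 in P2, 0.65 in P3, 0.84 in endothelial and 1.12 in mural and -0.99 in epithelial cells, 0.57 in macrophages, 0.88 in monocytes and 0.97 in lymphoid cells, so the difference between Apoe and the median gene did not change. DESeq2 size factors moved every gene by 0.02 in stromal, 0.16 in P1, 0.28 in P3 and 0.23 in lymphoid cells and by 0.16 in macrophages, and the ratio was -1.32 in P1, -0.60 in P3 and 0.59 in macrophages. With the lymphoid level subtracted it was -1.72 in stromal, -1.61 in P1, -1.77 in P2 and -3.52 in epithelial cells. With cells of at least 200 genes the P3 ratio was -0.43, and as a mean over cells it was -1.31. Without cells with 2 or more UMIs of another class it was 0.65 in macrophages.

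Alternatives added after the data were seen gave the following. In cells without a UMI of another class the ratio was -1.64 in P1, -1.54 in P2, -0.53 in P3, 0.73 in macrophages, 3.13 in monocytes and -0.28 in endothelial cells. With at least 8 stromal marker UMIs as well it was -1.53 in stromal, -1.65 in P1, -1.46 in P2 and -0.31 in P3 cells.

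Leaving out 1 barcode set each gave -1.74 to -1.59 in P2, 0.37 to 0.58 in macrophages, 0.21 to 1.27 in monocytes and -0.93 to 0.23 in lymphoid cells, the last without WT4_p2. The share of genes lower by 2-fold was 6.06% in macrophages with a minimum of 20 UMIs, 0.61% with 200 and 10.2% with 1, and 2.79% in lymphoid cells with 200.

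No paired analysis was possible because no set code matches a single sample title and no test was made. Dendritic cells gave no ratio. Subtraction of the lymphoid level gave none in monocytes and mural cells, where a level fell below 0, and no epithelial ratio was had from cells without a UMI of another class. The mural, monocyte, dendritic and Bbs8 WT lymphoid values rest on few cells and few Apoe UMIs. With 1 mouse per genotype, as the design text has it, the difference between genotypes and the difference between mice cannot be told apart.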
